A study of Mus musculus with 12 samples.

Results

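Loss of the glucocorticoid receptor from astrocytes was examined across both rearing conditions of the study, by setting the 6 AGR cKO libraries against the 6 Cre- libraries with rearing as a covariate. These are all 12 libraries of the series, chosen by their labels, and the comparison was made over every gene of the deposited count table. The material was polyadenylated RNA of astrocytes purified from the cerebral cortex of mice at postnatal day 14, by immunopanning and magnetic beads. Each of the 4 groups has 3 libraries: AGR cKO control, AGR cKO ESD, Cre- control and Cre- ESD.

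Both genotypes carried a floxed Nr3c1, the gene of the glucocorticoid receptor, and both were given 4-hydroxytamoxifen on days 5 to 7. AGR cKO mice carried in addition Aldh1l1-CreERT2, a recombinase that works once tamoxifen is bound and that is driven by the promoter of the astrocyte gene Aldh1l1. Cre- mice had no recombinase. ESD pups were kept apart from the dam for 3 hours on each of days 1 to 14, and control pups were not. The genotype entries of some samples count upwards with the replicate number, so groups were taken from the sample titles, and the column names cre_P and cre_M were read as Cre plus and Cre minus. The labels do not say whether the 3 libraries of a group come from separate animals or from pools, so the p-values measure the spread between these libraries, which may be technical. Which exon is deleted is not stated, and neither is which exons of a gene the counts take in. In bulk RNA, fewer cells of a type and less RNA per cell cannot be told apart.

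Glucocorticoids enter the cell, bind their receptor and carry it to the nucleus, where it raises some genes and lowers others by binding DNA or by tethering to other factors. In astrocytes the receptor is known for raising genes of stress hormone feedback, metal binding, lipid handling and ion transport. Astrocytes also make cholesterol for neurons, buffer potassium and glutamate, shape synapses and the surrounding matrix, and engulf debris through receptor tyrosine kinases.

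Library depth was 42603546 to 52130081 counts, and the 10 most abundant genes took 8.16% to 10.8% of the counts. The 20 astrocyte markers were detected in every library and summed to 61590 to 77440 CPM (median 65880) in AGR cKO and 57380 to 76760 CPM (median 74740) in Cre-. CPM are counts scaled to a common library size, and do not correct for gene length. Cre- control 1 and Cre- ESD 3 stood apart from the other Cre- libraries: the first held the most endothelial and microglial marker RNA (2457 and 1409 CPM summed) and the least astrocyte marker RNA, and the second the most RNA of 25 glucocorticoid-induced genes (4977 CPM summed, against 2855 to 3597 CPM in the other Cre- libraries).

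Nr3c1 itself (chromosome 18, 39410545 to 39519421; mm10 here and below) stood at 102, 93.2 and 108 CPM in AGR cKO control and 90.5, 66.6 and 95.9 CPM in AGR cKO ESD libraries, against 214, 210 and 237 CPM in Cre- control and 209, 205 and 199 CPM in Cre- ESD libraries. The genotypes did not overlap. The log2 fold change of AGR cKO over Cre- was -1.20 ± 0.08 (standard error, n = 6 each; edgeR quasi-likelihood test, adjusted p = 6.1e-05, Benjamini-Hochberg), and from -1.23 to -1.13 when each library was left out in turn. The value was -1.28 ± 0.12 under ESD and -1.12 ± 0.12 in control, and the difference of these 2 values, -0.15 ± 0.17, did not pass (edgeR adjusted p = 0.999). Aldh1l1 (chromosome 6, 90550768 to 90599171), whose promoter drives the recombinase, ranged from 437 to 667 CPM in AGR cKO and from 377 to 544 CPM in Cre- libraries, with a log2 fold change of 0.04 ± 0.09 (edgeR adjusted p = 0.865).

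Over the whole table, 748 of 19163 genes tested differed between the genotypes at an adjusted p under 0.05, which is 3.9% of them. Of these, 308 (1.61% of the genes tested) were higher in AGR cKO and 440 (2.3%) lower. The lower side held the large changes: among 189 genes that changed by 2-fold or more, 172 were lower and 17 higher. In 422 of the called genes no AGR cKO library overlapped a Cre- library, against 531 (2.77%) of all genes tested, and the median absolute log2 fold change of the called genes was 0.63.

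The count of calls depended on single libraries. It was 336 without AGR cKO control 1, 278 without AGR cKO control 2, 328 without AGR cKO ESD 1 and 1352 without Cre- control 2, and 423 without both Cre- control 1 and Cre- ESD 3. Genes called higher numbered 192 without AGR cKO control 3, 183 without Cre- control 3 and 193 without Cre- ESD 3. With the levels of microglial and endothelial markers as covariates 4 genes were called, and with neuronal and ependymal markers 1. All 86 called genes among those chosen for naming (the rule is given with the processing) kept their direction in both covariate fits, with a median size of 0.802 and 1.07 times, and a median standard error of 1.49 and 1.62 times, that of the fit without them. Of these 86 genes, 58 were called in each of the 12 fits that left out 1 library and 28 did not pass in at least 1.

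Rearing conditions gave the same direction for each called gene. All 748 had the same sign in ESD and in control libraries, against 12041 (62.8%) of all genes tested; the calls rest on both conditions, so this describes them and tests nothing. The change was larger under ESD in 490 of the 748. The same count was not made over all genes tested, and the ESD libraries include Cre- ESD 3, which stood apart. The 490 is therefore a description, and its cause was not tested. For the difference between conditions itself, the genotype by rearing interaction, edgeR called 0 of 19163 genes (0%), with 860 at an unadjusted p under 0.05 and a smallest adjusted p of 0.904, and DESeq2 called 9. Of the 748 genes, 592 were called in neither condition alone in a fit of the 4 group means, in which 200 genes were called under ESD and 3 in control; fitted on the 6 libraries of 1 condition only, edgeR called 0 under ESD and 32 in control.

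**Figure D1:**
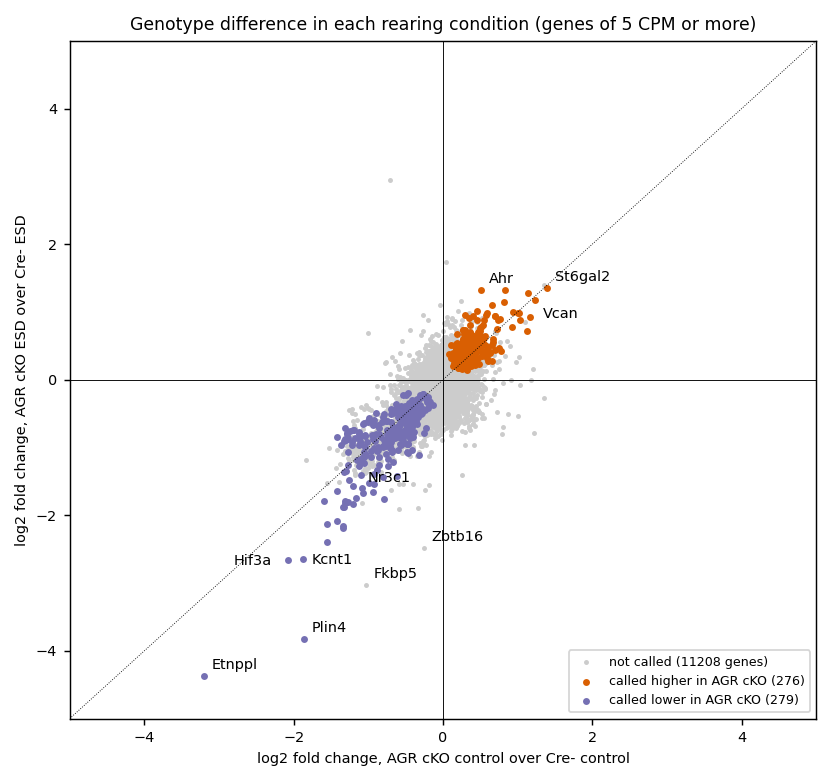
Log2 fold change of AGR cKO over Cre- in control libraries (x axis) and in ESD libraries (y axis), one point per tested gene with a mean of at least 5 CPM (11763 genes, 1 of them outside the axes); orange and purple points are the 276 called higher and 279 called lower over both conditions, and the dotted line marks equal change. Called genes lie at the lower left and upper right. Fkbp5 and Zbtb16, which were not called over both conditions, lie far lower under ESD than in control.

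Genes that glucocorticoids are known to raise were lower in AGR cKO. Of 25 such genes tested, 24 had a negative log2 fold change, 12 were called lower and 0 higher, and the median was -0.77, against -0.0022 over all genes tested. Their summed level ranged from 1951 to 2471 CPM (median 2114) in AGR cKO and from 2855 to 4977 CPM (median 3136) in Cre- libraries, with no overlap. Called members with no overlap between genotypes were the transcription regulators Hif3a and Tsc22d3, the lysophosphatidylcholine transporter Mfsd2a, the sulfotransferase Sult1a1, the lipid droplet protein Plin4 and the metallothionein Mt2. The other called members were Mt1, Klf9, Per1, Sgk1, Nfkbia and Nedd9, at -0.78 to -0.36, each with some overlap. Klf9 and Per1 each did not pass in 9 of the 12 fits that left out 1 library, and with microglial and endothelial marker levels as covariates Per1 was at -0.31, against -0.51 without them. The members were chosen with results of these data known, so the count is a description.

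Hif3a (chromosome 7, 17030993 to 17062427), an alpha subunit of hypoxia-inducible factor, was among the genes with the smallest p. It stood at 30.4, 31.9 and 29.9 CPM in AGR cKO control and 26.5, 31.0 and 50.2 CPM in AGR cKO ESD libraries, against 103, 171 and 115 CPM in Cre- control and 191, 125 and 362 CPM in Cre- ESD libraries. Its log2 fold change was -2.37 ± 0.26 (n = 6 each, edgeR adjusted p = 0.00166), and it was called without any 1 library and without both Cre- libraries that stood apart (-2.18 ± 0.18). Of 14 genes of the hypoxia-inducible factor list 2 were called lower and 0 higher (14.3%, against 3.9% of all genes tested). The second was Car9, a carbonic anhydrase, at -1.17 ± 0.25 (edgeR adjusted p = 0.0246), which did not pass without AGR cKO control 2 (0.0584) or AGR cKO ESD 1 (0.0553), nor without both Cre- libraries that stood apart (0.0845). With neuronal and ependymal marker levels as covariates Car9 was at -0.39 ± 0.31 (edgeR adjusted p = 0.637).

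Mfsd2a (chromosome 4, 122946850 to 122961194), which carries lysophosphatidylcholine with omega-3 fatty acids into the brain, ranged from 88.0 to 148 CPM (median 105) in AGR cKO and from 201 to 474 CPM (median 263) in Cre- libraries. Its log2 fold change was -1.37 ± 0.20 (edgeR adjusted p = 0.00583). Mfsd2a is also a gene of brain endothelium, whose 14 markers all had negative log2 fold changes with 0 called; with microglial and endothelial marker levels as covariates its value was -0.76 ± 0.23 (edgeR adjusted p = 0.382). Mt2 (chromosome 8, 94172618 to 94173567), a metal-binding protein, ranged from 138 to 180 CPM in AGR cKO and from 184 to 407 CPM in Cre- libraries, a log2 fold change of -0.85 ± 0.13 (edgeR adjusted p = 0.00759). Sult1a1 (chromosome 7, 126672865 to 126690443), which sulfates phenols, ranged from 8.37 to 16.5 CPM in AGR cKO and from 19.8 to 92.6 CPM in Cre- libraries, at -1.84 ± 0.33 (edgeR adjusted p = 0.0123).

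Tsc22d3 and Plin4 were each far higher in Cre- ESD 3 than in the other Cre- libraries. Tsc22d3, which encodes the glucocorticoid-induced leucine zipper, held 68.5 to 106 CPM in AGR cKO and 137 to 367 CPM in Cre- libraries. The 367 CPM was in Cre- ESD 3 alone. The log2 fold change of Tsc22d3 was -1.11 ± 0.22 (edgeR adjusted p = 0.0194), and -0.82 ± 0.11 (0.00374) without Cre- ESD 3. Tsc22d3 was called in 11 of the 12 fits that left out 1 library, and did not pass without AGR cKO ESD 1 (0.0544). Plin4 held 0.717 to 1.48 CPM in AGR cKO and 1.96 to 37.4 CPM in Cre- libraries, and its -2.88 ± 0.67 (edgeR adjusted p = 0.034) was -1.84 without Cre- ESD 3 (0.00929) and it did not pass in any of the 6 fits that left out an AGR cKO library (0.0535 to 0.0875). With neuronal and ependymal marker levels as covariates Plin4 was at -1.84 ± 1.18 (edgeR adjusted p = 0.549). The number of members called lower was 5 without AGR cKO control 1 or 2, 4 without AGR cKO ESD 1, 6 without AGR cKO ESD 2, 8 without both Cre- libraries that stood apart, and 0 with either pair of marker levels as covariates.

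Fkbp5 encodes a chaperone partner of the receptor and Zbtb16 a zinc finger factor. Both are classical glucocorticoid-induced genes, and neither passed over both rearing conditions together. Fkbp5 held 3.35 to 6.62 CPM in AGR cKO and 6.85 to 11.1 CPM in 5 Cre- libraries, with 103 CPM in Cre- ESD 3, a log2 fold change of -2.06 ± 0.60 (edgeR adjusted p = 0.0745). Its genotypes did not overlap. Without Cre- ESD 3 Fkbp5 passed, at -1.04 ± 0.16 (edgeR adjusted p = 0.00782), and without both Cre- libraries that stood apart it was at -1.09 ± 0.17 (0.00855). Under ESD, Zbtb16 held 7.25, 10.6 and 19.0 CPM in AGR cKO and 54.5, 48.7 and 104 CPM in Cre- libraries, and in control rearing 8.88, 11.3 and 9.21 CPM in AGR cKO and 13.0, 10.8 and 11.3 CPM in Cre- libraries, a log2 fold change of -1.40 ± 0.41 over both (edgeR adjusted p = 0.0771). The genotypes were apart under ESD and overlapped in control rearing, and the test of that difference gave an interaction of -2.24 ± 0.48 on the log2 scale (edgeR unadjusted p = 0.00055, adjusted p = 0.981). In the fit of the 4 group means Zbtb16 was called under ESD, at -2.49 ± 0.35 (edgeR adjusted p = 0.0185). In control it was not called there, at -0.25 ± 0.34 (0.866).

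Sgk1 (chromosome 10, 21882184 to 21999903), a kinase that glucocorticoids and mineralocorticoids raise, ranged from 31.4 to 65.9 CPM in AGR cKO and from 51.0 to 108 CPM in Cre- libraries, which overlapped. Its log2 fold change was -0.78 ± 0.20 (edgeR adjusted p = 0.0459), and it passed in 2 of the 12 fits that left out 1 library, those without AGR cKO control 3 and without Cre- control 2; the highest adjusted p was 0.104, without AGR cKO control 1. With microglial and endothelial marker levels as covariates Sgk1 was at -0.18 ± 0.10 (edgeR adjusted p = 0.719). Map7d2 (chromosome X, 159414492 to 159498958), a microtubule-associated protein, ranged from 4.69 to 5.55 CPM in AGR cKO and from 10.1 to 38.7 CPM in Cre- libraries, a log2 fold change of -1.75 ± 0.24 (edgeR adjusted p = 0.00452), and was called without any 1 library. Of the genes always given here or at the extremes of the fold changes, these 2 had a RefSeq promoter, 250 bases before to 50 after an annotated start, that matched GNACA and TGTNC with 3 free letters between them (N is any base), the spaced palindrome that the receptor binds as a dimer. A gene can have several annotated starts, and the start used here lies inside the span given for each gene. The plus strand of build GRCm38.p6 is printed, with the match in capitals: it begins at -188 in Sgk1 (chr10:21993640-21993939) and at 11 in Map7d2 (chrX:159458875-159459174), counted from that start.
Sgk1: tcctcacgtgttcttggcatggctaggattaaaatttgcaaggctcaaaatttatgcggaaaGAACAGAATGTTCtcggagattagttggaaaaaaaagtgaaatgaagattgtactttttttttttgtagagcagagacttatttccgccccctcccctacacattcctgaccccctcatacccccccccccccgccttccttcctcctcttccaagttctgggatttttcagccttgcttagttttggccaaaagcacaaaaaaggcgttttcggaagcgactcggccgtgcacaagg
Map7d2: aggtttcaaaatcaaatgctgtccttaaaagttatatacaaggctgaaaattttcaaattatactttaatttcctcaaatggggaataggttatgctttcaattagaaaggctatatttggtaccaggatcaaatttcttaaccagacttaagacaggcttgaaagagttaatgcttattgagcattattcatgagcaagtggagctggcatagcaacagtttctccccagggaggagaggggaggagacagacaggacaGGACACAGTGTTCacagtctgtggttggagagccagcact
Genes were counted if the palindrome, searched on both strands, was in the promoter of any of their listed starts. These were 61 (0.435%) of the 14022 tested genes with a promoter, and 6 (1.83%) of 328 called lower. Among genes called higher they were 1 (0.398%) of 251, and in the glucocorticoid-induced list 2 (9.09%) of 22. A match is a string of letters and not a measured binding site.

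**Figure D2:**
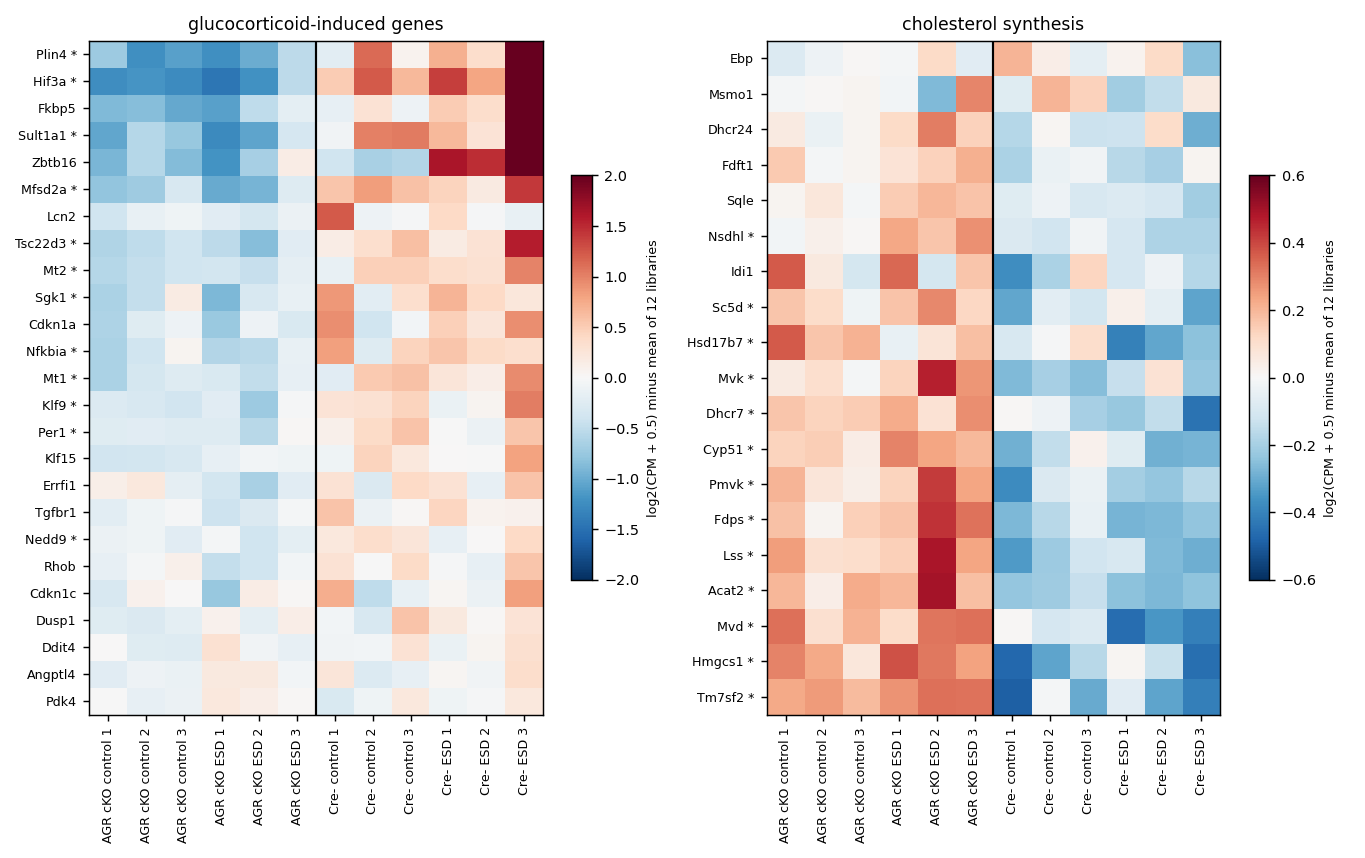
Each row is a gene (not every list member is drawn) and each column a library (AGR cKO left of the line, Cre- right of it); colour is log2(CPM + 0.5) minus the gene's mean over the 12 libraries, with values beyond the end of a colour bar shown in its end colour, and an asterisk marks a called gene. Glucocorticoid-induced genes are lower in AGR cKO, most of all against Cre- ESD 3, and cholesterol synthesis genes are higher by smaller amounts.

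Most genes of cholesterol synthesis rose. Of 20 tested, 19 had a positive log2 fold change, 14 were called higher and 0 lower, and the median was 0.33, against -0.0022 over all genes tested. Their summed level ranged from 4876 to 5542 CPM (median 5378) in AGR cKO and from 3992 to 4535 CPM (median 4336) in Cre- libraries, with no overlap. The changes were small. Between 11 and 15 members were called when each library was left out in turn, 8 without both Cre- libraries that stood apart, and 0 with either pair of marker levels as covariates.

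The called members run along the whole pathway. Acat2, which joins 2 acetyl-CoA, ranged from 68.2 to 93.7 CPM in AGR cKO and from 54.9 to 60.2 CPM in Cre- libraries, at 0.45 ± 0.07 (n = 6 each, edgeR adjusted p = 0.00575). Mvd, which makes isopentenyl pyrophosphate, ranged from 77.3 to 91.2 CPM in AGR cKO and from 52.7 to 72.7 CPM in Cre- libraries, at 0.47 ± 0.08 (edgeR adjusted p = 0.00889). Lss, which closes the sterol rings, ranged from 182 to 240 CPM in AGR cKO and from 135 to 160 CPM in Cre- libraries, at 0.44 ± 0.07 (edgeR adjusted p = 0.00759). Tm7sf2, a sterol reductase, ranged from 109 to 120 CPM in AGR cKO and from 67.6 to 94.4 CPM in Cre- libraries, at 0.53 ± 0.08 (edgeR adjusted p = 0.00609). None of these 4 genes overlapped between genotypes, and each was called without any 1 library. Others, given to complete the list, were Hmgcs1, Mvk, Pmvk, Fdps, Cyp51, Sc5d, Nsdhl, Hsd17b7 and Dhcr7, at 0.23 to 0.50; Ebp (-0.03) was the 1 member with a negative value.

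The genes that set the pathway's activity did not pass. Of 9 genes of sterol sensing and uptake 0 were called by edgeR, with 4 higher at an unadjusted p under 0.05, and DESeq2 called 1 higher. Stard4, a sterol carrier, was at 0.23 ± 0.10 (edgeR adjusted p = 0.222). Of 14 genes of lipoproteins and sterol efflux edgeR called 0, with 3 higher and 1 lower at an unadjusted p under 0.05, and DESeq2 called 1 each way. Vldlr, a lipoprotein receptor, was at 0.57 ± 0.16 (edgeR adjusted p = 0.0621) and Abcg1, a sterol exporter, at -0.65 ± 0.22 (0.11).

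Fatty acid genes moved both ways. Of 18 genes of synthesis and elongation 2 were called higher and 3 lower (27.8%, against 3.9% of all genes tested). Acly, which makes cytosolic acetyl-CoA, ranged from 244 to 290 CPM in AGR cKO and from 193 to 225 CPM in Cre- libraries, at 0.33 ± 0.06 (edgeR adjusted p = 0.0118). Acsl3, which activates long-chain fatty acids, ranged from 455 to 672 CPM in AGR cKO and from 772 to 1287 CPM in Cre- libraries, at -0.73 ± 0.13 (edgeR adjusted p = 0.0125), and Acacb, an acetyl-CoA carboxylase of the mitochondrial surface, was at -0.53 ± 0.10 (0.0157). None of Acly, Acsl3 and Acacb overlapped between genotypes. With microglial and endothelial marker levels as covariates Acsl3 was at -0.47 ± 0.16 and Acacb at -0.33 ± 0.14 (edgeR adjusted p = 0.458 and 0.567), and Acacb did not pass without both Cre- libraries that stood apart (0.0569). Pygm (chromosome 19, 6384408 to 6398464), a glycogen phosphorylase, ranged from 46.6 to 61.5 CPM in AGR cKO and from 79.5 to 169 CPM in Cre- libraries, at -1.02 ± 0.18 (edgeR adjusted p = 0.0108). With Aldoc and Pfkp it was 1 of 3 genes called lower of 26 of glucose, glycogen and lactate (11.5%, against 3.9% of all genes tested). Aldoc did not pass in 9 of the 12 fits that left out 1 library (up to 0.0932) and Pfkp in 7 (up to 0.0745). Of 24 nuclear genes of oxidative phosphorylation edgeR and DESeq2 each called 0, with 0 at an unadjusted p under 0.05.

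**Figure D3:**
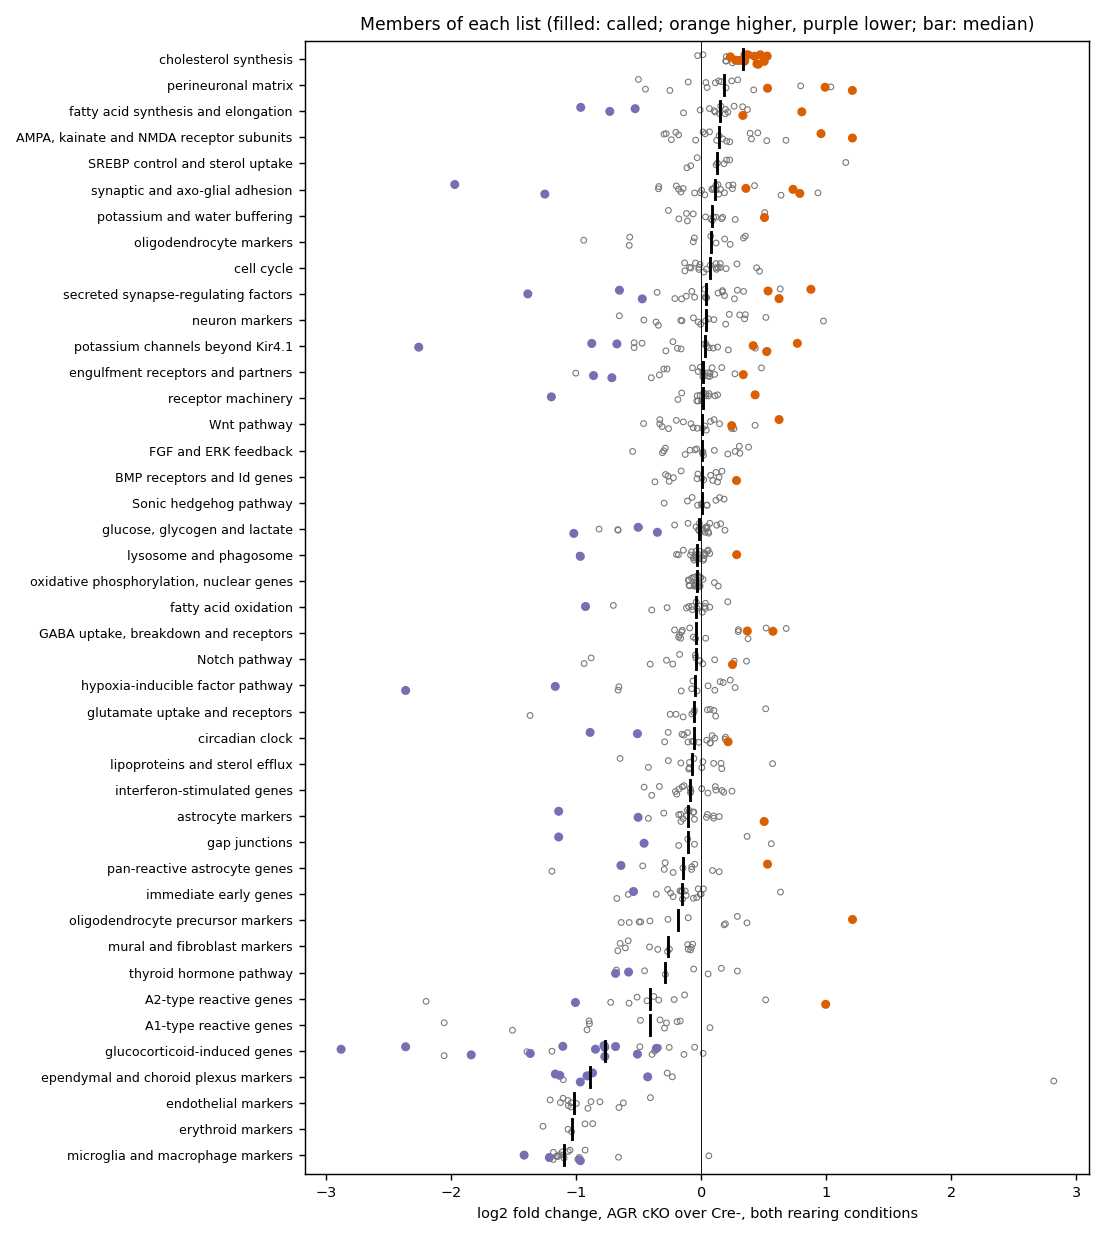
Log2 fold change of AGR cKO over Cre- for each tested member of 43 gene lists (x axis); filled points are called genes, orange higher and purple lower, and the black bar is the list's median. Cholesterol synthesis (median 0.33) stands at the top and the glucocorticoid-induced genes (median -0.77) among the lowest pathway lists, with the marker lists of microglia, endothelium, ependyma and red cells below them.

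Among engulfment genes, the receptor Mertk and its ligand Gas6 fell, and edgeR called none of the other receptors. Mertk (chromosome 2, 128698915 to 128803162), a receptor tyrosine kinase, held 284, 285 and 296 CPM in AGR cKO control and 349, 255 and 376 CPM in AGR cKO ESD libraries, against 429, 512 and 520 CPM in Cre- control and 570, 534 and 818 CPM in Cre- ESD libraries. The genotypes did not overlap, and the log2 fold change was -0.86 ± 0.12 (n = 6 each, edgeR adjusted p = 0.00452), from -0.91 to -0.76 when each library was left out. Gas6 (chromosome 8, 13465374 to 13494535), which bridges dying cells to the receptor, held 61.9, 62.9 and 57.7 CPM in AGR cKO control and 58.1, 60.1 and 64.9 CPM in AGR cKO ESD libraries, against 106, 108 and 106 CPM in Cre- control and 87.5, 77.3 and 117 CPM in Cre- ESD libraries. It too was without overlap, at -0.72 ± 0.09 (edgeR adjusted p = 0.00252).

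Both genes are also used by other cells, Mertk by macrophages and Gas6 by vessel cells, and the microglial and endothelial markers had mostly negative log2 fold changes. With those marker levels as covariates Mertk was at -0.74 ± 0.17 and Gas6 at -0.58 ± 0.13 (edgeR adjusted p = 0.241 each). Axl, another receptor of the family, ranged from 401 to 469 CPM in AGR cKO and from 365 to 448 CPM in Cre- libraries, at 0.05 ± 0.06 (edgeR adjusted p = 0.713), and Megf10, which binds C1q on synapses, ranged from 151 to 227 CPM in AGR cKO and from 172 to 240 CPM in Cre- libraries, at -0.07 ± 0.11 (0.783). Of all 22 engulfment genes edgeR called 1 higher and 2 lower (13.6%, against 3.9% of all genes tested). At an edgeR unadjusted p under 0.05, 4 were higher and 6 lower. DESeq2 called 3 higher and 4 lower. The 1 that edgeR called higher, Gulp1, an adaptor, was at 0.33 ± 0.08 (edgeR adjusted p = 0.0364). It did not pass in 9 of the 12 fits that left out 1 library (up to 0.0711, without Cre- ESD 3). Of 27 lysosome and phagosome genes 1 was called higher and 1 lower (7.41%, against 3.9% of all genes tested).

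Some matrix genes rose. Of 18 genes of the perineuronal matrix 3 were called higher and 0 lower (16.7%, against 3.9% of all genes tested), with a median of 0.18. Vcan (chromosome 13, 89655309 to 89743027), the proteoglycan versican, held 278, 239 and 253 CPM in AGR cKO control and 238, 270 and 240 CPM in AGR cKO ESD libraries, against 111, 123 and 93.1 CPM in Cre- control and 131, 127 and 71.9 CPM in Cre- ESD libraries. Tnc (chromosome 4, 63959785 to 64047015), the glycoprotein tenascin C, held 752, 639 and 648 CPM in AGR cKO control and 771, 859 and 595 CPM in AGR cKO ESD libraries, against 427, 384 and 207 CPM in Cre- control and 424, 464 and 243 CPM in Cre- ESD libraries. Neither gene overlapped, and both were called without any 1 library, Vcan at 1.21 ± 0.13 and Tnc at 0.99 ± 0.19 (edgeR adjusted p = 0.00166 and 0.0156).

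Vcan is also a marker of oligodendrocyte precursors, and of the 12 precursor markers it was the only one called, while the list's median was -0.19. Cd44, the hyaluronan receptor, was at 0.53 ± 0.11 (edgeR adjusted p = 0.0239), and did not pass without AGR cKO control 1 (0.057), AGR cKO control 2 (0.0598) or AGR cKO ESD 1 (0.0525). Adamts5, a protease that cuts such proteoglycans, ranged from 34.9 to 41.1 CPM in 5 AGR cKO libraries and was at 15.6 CPM in AGR cKO ESD 2, against 9.16 to 21.1 CPM in Cre- libraries, at 1.07 ± 0.21 (edgeR adjusted p = 0.0184). Fras1, a basement membrane protein, ranged from 39.6 to 57.7 CPM in AGR cKO and from 18.3 to 38.5 CPM in Cre- libraries, at 0.92 ± 0.15 (edgeR adjusted p = 0.00759). Sparc, a secreted matrix protein that limits synapse formation, fell: it ranged from 618 to 956 CPM in AGR cKO and from 1104 to 1417 CPM in Cre- libraries, at -0.66 ± 0.10 (edgeR adjusted p = 0.00652). Sparc is also made by endothelium and microglia, and with their marker levels as covariates it was at -0.46 ± 0.15 (edgeR adjusted p = 0.413).

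**Figure D4:**
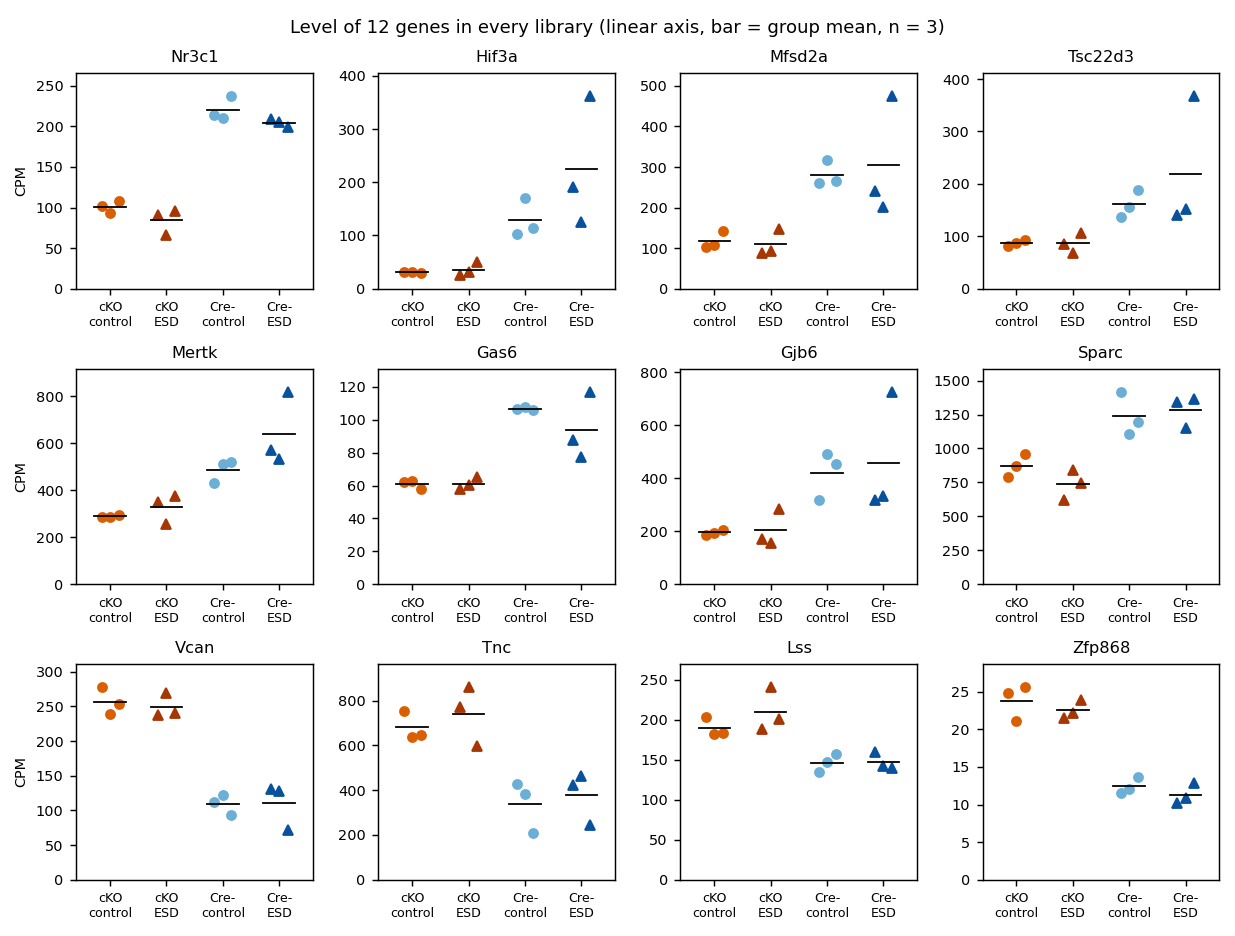
CPM of 12 genes (y axis, linear from 0) in each of the 12 libraries, by group; points are libraries and the bar is the mean of 3. Hif3a, Mfsd2a, Tsc22d3, Mertk, Gas6, Gjb6 and Sparc stand lower in AGR cKO and Vcan, Tnc, Lss and Zfp868 higher. Cre- ESD 3 is the highest library in Hif3a, Mfsd2a, Tsc22d3, Mertk, Gas6 and Gjb6.

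Genes of synapses and cell contact moved in both directions. Of 24 secreted synapse factors 3 were called higher and 3 lower (25%, against 3.9% of all genes tested). Ptn, the growth factor pleiotrophin, ranged from 3038 to 4183 CPM in AGR cKO and from 2222 to 2971 CPM in Cre- libraries, at 0.53 ± 0.09 (edgeR adjusted p = 0.00915), and Lgi1, a secreted synaptic protein, ranged from 3.83 to 8.82 CPM in AGR cKO and from 11.5 to 24.9 CPM in Cre- libraries, at -1.39 ± 0.21 (0.00609). Of 30 adhesion genes 3 were called higher and 2 lower (16.7%, against 3.9% of all genes tested). The 2 lower were Cntn1, a contactin, with 9.98 to 17.9 CPM in AGR cKO and 19.2 to 39.7 CPM in Cre- libraries, at -1.25 ± 0.18 (edgeR adjusted p = 0.00495), and Cdh19, a cadherin, with 8.13 to 15.8 CPM in AGR cKO and 21.1 to 93.6 CPM in Cre- libraries, at -1.97 ± 0.30 (0.00679). Nlgn2, the neuroligin of inhibitory synapses, was at 0.36 ± 0.06 and Cntnap2, a neurexin-like protein, at 0.79 ± 0.14 (edgeR adjusted p = 0.00759 and 0.0125). Each of these 6 genes was without overlap between genotypes and was called without any 1 library. With microglial and endothelial marker levels as covariates Ptn was at 0.28 ± 0.12 and Cntnap2 at 0.43 ± 0.21 (edgeR adjusted p = 0.576 and 0.681).

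Glutamate receptor subunits and auxiliary proteins had 2 of 21 called (9.52%, against 3.9% of all genes tested), both higher. Grin1, the obligate NMDA receptor subunit, ranged from 10.4 to 16.7 CPM in AGR cKO and from 6.71 to 7.80 CPM in Cre- libraries, at 0.96 ± 0.11 (edgeR adjusted p = 0.0021). Cnih3, an AMPA receptor auxiliary protein, ranged from 5.40 to 11.0 CPM in AGR cKO and from 1.96 to 4.40 CPM in Cre- libraries, at 1.21 ± 0.21 (edgeR adjusted p = 0.0108). Neither overlapped. Of 19 neuron markers edgeR called 0, with 2 higher and 2 lower at an unadjusted p under 0.05, and DESeq2 called 1 higher. Of 12 genes of glutamate uptake and metabotropic receptors edgeR called 0, with 2 lower at an unadjusted p under 0.05, and DESeq2 called 1 lower.

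Gap junction and channel genes were split. Of 7 gap junction genes 2 were called (28.6%, against 3.9% of all genes tested), both lower. Gjb6 (chromosome 14, 57123301 to 57133611), connexin 30, held 187, 195 and 204 CPM in AGR cKO control and 171, 154 and 283 CPM in AGR cKO ESD libraries, against 317, 492 and 452 CPM in Cre- control and 318, 332 and 727 CPM in Cre- ESD libraries. It did not overlap, at -1.14 ± 0.21 (edgeR adjusted p = 0.015), and Gjb2, connexin 26, its neighbour on chromosome 14, was at -0.46 ± 0.07 (0.00674). Gja1, connexin 43, was at -0.06. Aqp4, the water channel of astrocyte endfeet, ranged from 2152 to 2651 CPM in AGR cKO and from 1349 to 1968 CPM in Cre- libraries, at 0.50 ± 0.10 (edgeR adjusted p = 0.0225), and did not pass without AGR cKO control 1 (0.0535), AGR cKO control 2 (0.0583) or AGR cKO ESD 1 (0.0522). With microglial and endothelial marker levels as covariates Gjb6 was at -0.69 ± 0.21 and Aqp4 at 0.33 ± 0.15, and with neuronal and ependymal ones Gjb2 was at -0.28 ± 0.10 (edgeR adjusted p = 0.4, 0.652 and 0.318). Of the other potassium channels, 3 of 22 were called higher and 3 lower (27.3%, against 3.9% of all genes tested). The largest, Kcnt1, a sodium-activated channel, ranged from 15.2 to 40.5 CPM in AGR cKO and from 31.2 to 273 CPM in Cre- libraries and overlapped through Cre- control 1, at -2.26 ± 0.41 (edgeR adjusted p = 0.0125).

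Of 16 genes of the receptor's own machinery, Nr3c1 was called lower and Nr3c2 higher. Nr3c2 (chromosome 8, 76898083 to 77245012), the mineralocorticoid receptor, which also binds glucocorticoids, ranged from 36.6 to 52.0 CPM in AGR cKO and from 32.7 to 40.9 CPM in Cre- libraries, overlapping through AGR cKO ESD 2, at 0.43 ± 0.08 (edgeR adjusted p = 0.0151). It was called without any 1 library, and did not pass without both Cre- libraries that stood apart (0.40 ± 0.09, edgeR adjusted p = 0.053). Clock genes had 1 called higher and 2 lower of 19 (15.8%, against 3.9% of all genes tested). The clearest was Npas2, a partner of the clock's activator, at -0.89 ± 0.11 (edgeR adjusted p = 0.00244). Npas2 ranged from 23.3 to 34.6 CPM in AGR cKO and from 40.0 to 67.8 CPM in Cre- libraries.

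Among called genes of at least 5 CPM that are not predicted models, the lowest log2 fold change belonged to Etnppl (chromosome 3, 130617448 to 130635750), which breaks down phosphoethanolamine. It ranged from 0.241 to 4.07 CPM in AGR cKO and from 4.08 to 79.6 CPM in Cre- libraries, at -3.79 ± 0.74 (edgeR adjusted p = 0.0186), and did not pass without AGR cKO control 2 (0.0517). With microglial and endothelial marker levels as covariates Etnppl was at -1.87 ± 1.04 (edgeR adjusted p = 0.734). Asic2, an acid-sensing channel, was at -1.77 ± 0.30, and Nrros, a transforming growth factor beta anchor made by microglia, at -1.76 ± 0.31 (edgeR adjusted p = 0.0104 and 0.011). With the same covariates Nrros was at -0.96 ± 0.48 (edgeR adjusted p = 0.687).

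The highest belonged to St6gal2, a sialyltransferase, which ranged from 21.8 to 31.1 CPM in AGR cKO and from 3.35 to 13.8 CPM in Cre- libraries, at 1.38 ± 0.28 (edgeR adjusted p = 0.0215). It did not pass without AGR cKO control 1 (0.0511), AGR cKO control 2 (0.0565) or AGR cKO ESD 1 (0.0524). S100a10, a calcium-binding partner of annexin A2, ranged from 13.5 to 17.3 CPM in AGR cKO and from 6.08 to 9.66 CPM in Cre- libraries, at 0.99 ± 0.11, and Them4, a thioesterase, from 43.4 to 50.3 CPM in AGR cKO and from 15.2 to 29.3 CPM in Cre- libraries, at 0.98 ± 0.12 (edgeR adjusted p = 0.0021 and 0.00252). Alk, a receptor tyrosine kinase, was at 1.05 ± 0.16 (edgeR adjusted p = 0.00692), and at 0.64 ± 0.23 (0.48) with microglial and endothelial marker levels as covariates. After Nr3c1, the smallest p among named genes belonged to Zfp868 (chromosome 8, 69610654 to 69625557), a zinc finger gene, which ranged from 21.1 to 25.6 CPM in AGR cKO and from 10.2 to 13.7 CPM in Cre- libraries, at 0.97 ± 0.08 (edgeR adjusted p = 0.000216). The genotypes did not overlap in any of S100a10, Them4, Alk and Zfp868.

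Marker levels of other cell types stood lower in AGR cKO for some types and not for others. Among the 20 astrocyte markers themselves, 14 had a negative log2 fold change, with a median of -0.10. Gjb6 and Aldoc were called lower and Aqp4 higher (15%, against 3.9% of all genes tested). At an edgeR unadjusted p under 0.05, 7 astrocyte markers were lower and 1 higher. Of 20 microglial markers 19 had a negative log2 fold change, with a median of -1.10 and 3 called lower; they summed to 328.5 to 676.5 CPM (median 455.6) in AGR cKO and 559 to 1409 CPM (median 787) in Cre- libraries. All 14 endothelial markers were negative, with a median of -1.02 and 0 called by edgeR or DESeq2 (11 at an unadjusted p under 0.05), at 330.4 to 992.8 CPM (median 617.2) in AGR cKO and 471.6 to 2457 CPM (median 1020) in Cre- libraries. Of 10 ependymal and choroid plexus markers 6 were called lower, with a median of -0.89, at 59.2 to 108 CPM in AGR cKO and 81.6 to 165.7 CPM in Cre- libraries. These 3 sums overlapped between genotypes, and no marker of microglia or endothelium was at 0 in any library. All 13 mural and fibroblast markers (median -0.27) and all 5 erythroid markers (median -1.04) were also negative, with 0 called by edgeR, 2 and 5 lower at an unadjusted p under 0.05, and 0 and 1 called by DESeq2. Neuron markers had 10 of 19 positive with a median of 0.03 (0.397 in control and -0.411 under ESD). They summed to 550.7 to 647.3 CPM (median 610.8) in AGR cKO and 466.1 to 591.7 CPM (median 583) in Cre- libraries. Oligodendrocyte markers had 6 of 11 positive with a median of 0.07 (0.129 in control and -0.215 under ESD). Their sums were 244 to 362.1 CPM (median 270.8) in AGR cKO and 251 to 295.5 CPM (median 281.9) in Cre- libraries. Precursor markers, Vcan among them, summed to 631.9 to 723.9 CPM (median 672) in AGR cKO and 452.1 to 606.8 CPM (median 514.2) in Cre- libraries, without overlap. The median of their log2 fold changes was nevertheless -0.19 (0.0383 in control and -0.467 under ESD). The calls of microglial markers depended on single libraries, with 17 called without Cre- control 2, 6 without AGR cKO ESD 3, 5 without AGR cKO control 3, 2 without Cre- ESD 3 and 0 without any of the other 8, and DESeq2 called 17. The ependymal ones numbered 3 without AGR cKO control 2 and 3 without both Cre- libraries that stood apart. Their part in the gene changes above was not tested beyond the covariate fits given here.

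**Figure D5:**
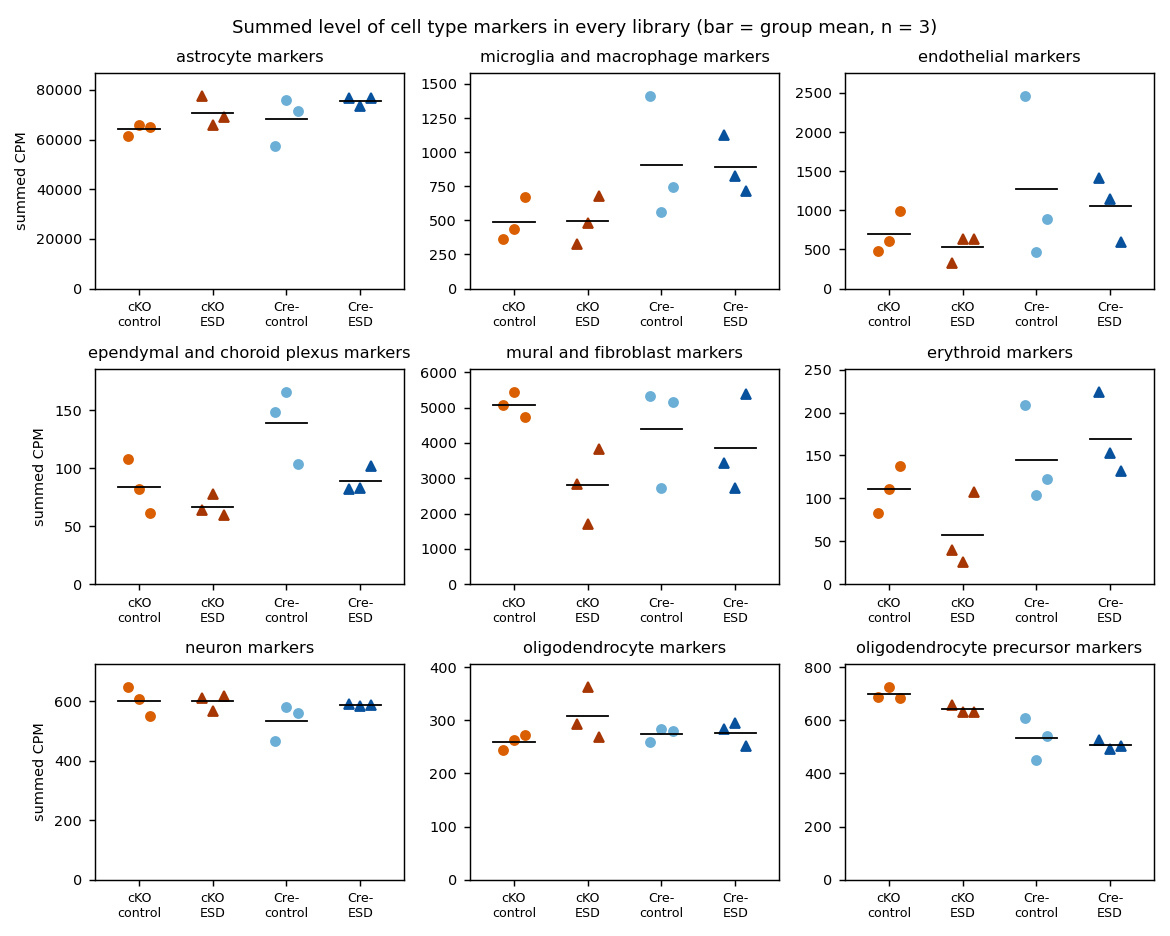
Summed CPM of the tested markers of 9 cell types (y axis, linear from 0) in each library, by group; points are libraries and the bar is the mean of 3. Microglial sums of AGR cKO libraries (328.5 to 676.5 CPM) lie mostly below those of Cre- libraries (559 to 1409 CPM), and Cre- control 1 is the highest in microglial and endothelial markers.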

How the data were processed

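RNA of purified cortical astrocytes from 12 samples was sequenced, and the libraries were grouped by their titles. Per the labels' protocols, 1 µg of RNA with an integrity number above 7.0 went into stranded mRNA libraries. Trimmomatic, StringTie 1.3.4b, HISAT2 2.1.0, HISAT, DESeq2 and Bowtie2 and the build mm10 are listed, without roles or order, per the submitters' processing notes. The authors deposited whole-number read counts per gene and per transcript, with no normalization stated; how reads were assigned to genes, with or without regard to strand, is not given in the sources used here, so reads of a gene and an antisense partner cannot be told apart. The deposited tables also hold FPKM, fragments scaled by length and depth, and TPM, levels scaled so that each library has the same sum.

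Gene counts were tested with edgeR 4.0.16 in R 4.3.3: filterByExpr left 19163 of 45777 genes, TMM factors scaled the library sizes, and a quasi-likelihood model with rearing and genotype took in the 12 libraries. It had 9 residual degrees of freedom and a common biological coefficient of variation of 0.192. A gene was called at a two-sided p under 0.05 after Benjamini-Hochberg adjustment over the 19163 genes. The standard error is the log2 fold change over the square root of F. Total counts were 42603546 to 52130081 per library. The spread between libraries of a group exceeded counting noise, with a chi-square per gene of 9.651 to 96.95. Depth alone therefore did not set the precision. The scripts were tested on simulated data. Alternatives included DESeq2 1.42.0, limma 3.58.1 on TPM, other scalings and filters, marker levels as covariates, a block on replicate number and each library left out. Marker levels were means of standardized log2 CPM with a prior count of 2.

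The libraries compared, the 43 gene lists with 698 symbols and the tests were chosen with earlier results of these data known. Named genes are 11 always given, then, among called genes of at least 5 CPM that are not predicted models and have 1 sign in both conditions, the 12 highest and 12 lowest log2 fold changes and the 6 smallest p each way, up to 4 called members per list or 2 uncalled ones, the 5 smallest interaction p, and runs of 3 or more called neighbours, 123 genes beside the runs. A few genes that the rule picks are not reported here. Genes named to complete a list, and Gja1 and Ebp, were chosen after their values were seen. Gene positions and promoters are from RefSeq (GRCm38.p6), with 14022 of 19163 tested genes matched to a promoter.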

Additional observations from a re-analysis of the deposited data

Results flagged for a closer look

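In the genes named here, each genotype's 6 libraries were searched for 1 library far from the others (Dixon's test on log2(CPM + 0.5)), and 19 of 246 sets of 6 held one; chance gives about 1 in 20. Each set mixes both rearing conditions. Cre- ESD 3 was that library in 7 sets of Cre- libraries. It was the highest in Fkbp5 (103 CPM, against 6.85 to 11.1 CPM in the others), Tsc22d3 (367 CPM, against 137 to 189), Plin4 (37.4 CPM, against 1.96 to 5.72) and Map7d2 (38.7 CPM, against 10.1 to 15.8), and the lowest in Vldlr (60.8 CPM, against 99.3 to 114), Fgfrl1 (59.6 CPM, against 82.9 to 96.5) and Syn1 (6.54 CPM, against 8.12 to 9.16).

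AGR cKO ESD 2 stood apart in 5 sets of AGR cKO libraries. It was the lowest in Nr3c1 (66.6 CPM, against 90.5 to 108 in the others), Adamts5 (15.6 CPM, against 34.9 to 41.1), Nr3c2 (36.6 CPM, against 46.2 to 52.0) and Acta2, a smooth muscle actin (9.35 CPM, against 21.5 to 32.8), and the highest in Cnih3 (11.0 CPM, against 5.40 to 6.99). AGR cKO ESD 3 was the highest in Hif3a (50.2 CPM, against 26.5 to 31.9) and in the potassium channel Kcnn2 (116 CPM, against 70.2 to 77.5). AGR cKO ESD 1 was the highest in 2 cell division genes, Cenpf (31.0 CPM, against 9.56 to 12.6) and Ccnb1 (17.8 CPM, against 3.91 to 6.08). AGR cKO control 1 was the highest in Gulp1 (38.2 CPM, against 26.8 to 29.3). In Cre- libraries, control 1 was the lowest in Axl (365 CPM, against 415 to 448) and control 3 the highest in Nr3c2 (40.9 CPM, against 32.7 to 35.1).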

How the results depend on the processing

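The 748 calls (308 higher, 440 lower) numbered within 1.5 times that under other scalings, filters and a fit without rearing. DESeq2 called 1778 (695 higher, 1083 lower; 742 of the 748 among them) and 9 for the interaction. The 6 control libraries alone gave 32 (11 higher, 21 lower) and the 6 ESD libraries alone 0 (0 and 0), where Nr3c1 at -1.28 did not pass; within the fit of 4 group means over all 12 libraries, 200 genes were called under ESD and 3 in control. A threshold of 0.01 gave 119 (44 higher, 75 lower) and of 0.1 1629 (661 higher, 968 lower). limma on log2(TPM + 1) with no filter gave 248 (121 higher, 127 lower). Marker levels of microglia and endothelium as covariates gave 4 (3 higher, 1 lower) and of neurons and ependyma 1 (0 higher, 1 lower). Without both Cre- libraries that stood apart, chosen after seeing the data, 423 were called (140 higher, 283 lower). Leaving out each library gave 278 to 1352 (119 to 554 higher, 159 to 798 lower). The cause of these differences was not tested.

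Replicate numbers gave no clear pairing of the samples: deviations of same-numbered libraries correlated at -0.104 to 0.183. Whether a number marks a shared litter or day is not given. The check cannot decide it, since each deviation is from a mean of 3 libraries. With the number as a block, 872 genes were called (371 higher, 501 lower), and with the number within each rearing condition as a block, 755 (301 higher, 454 lower).

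None of 14 tested Nr3c1 transcripts passed alone, at -0.97, -1.26, -1.63, -0.31, -1.70, -0.88, 1.80, -1.70, -0.41, -0.57, -1.39, 0.093, -1.04 and -1.51. Signs turned in these genes, none called there: in control libraries alone Gas1 (-0.0058), Fzd10 (-0.44) and Sez6l2 (0.55); in ESD libraries alone Axl (-0.0064) and Slc17a7 (-0.86); with microglial and endothelial levels Aldh1l1 (-0.15), Megf10 (0.019), Cenpf (-0.35) and Ccnb1 (-0.34); with neuronal and ependymal levels Axl (-0.036), Cldn11 (0.074) and Dcn (0.25); and without both Cre- libraries Aldh1l1 (-0.016), which ranged from -0.030 to 0.10 when each library was left out. Genes of few counts, and changes smaller than the library spread, are not resolved with 6 libraries a genotype.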

Other observations

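Several signalling groups had few called members. Cd109, a surface protein counted among reactive astrocyte genes, averaged 5.82 ± 1.48 CPM in AGR cKO and 11.5 ± 2.07 CPM in Cre- libraries (SD, n = 6 each), a log2 fold change of -1.01 ± 0.16 (edgeR adjusted p = 0.00759). The chemokine Cxcl10 averaged 7.99 ± 0.52 CPM in AGR cKO and 12.5 ± 1.99 CPM in Cre- libraries, at -0.64 ± 0.10 (edgeR adjusted p = 0.00609), and the stress-induced factor Atf3 averaged 85.95 ± 13.4 CPM in AGR cKO and 125 ± 12.2 CPM in Cre- libraries, at -0.55 ± 0.09 (0.00964). None of these 3 genes overlapped between genotypes. Id3, a target of bone morphogenetic proteins, was at 0.28 ± 0.05 and Axin2, a feedback inhibitor of Wnt signalling, at 0.24 ± 0.05, both without overlap (edgeR adjusted p = 0.0109 and 0.0158). Of 12 genes called A1-type reactive genes, 11 had a negative log2 fold change and edgeR called 0, with 5 lower at an unadjusted p under 0.05, and DESeq2 called 3 lower.

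Among the smallest p-values of the genotype by rearing interaction were those of Fzd10, a Wnt receptor (1.16 ± 0.21 on the log2 scale), the neuronal genes Sez6l2 (-1.38 ± 0.25) and Slc17a7 (-2.37 ± 0.46), and the predicted gene Gm40469, which was below 1 CPM on average. Each had an edgeR adjusted p of 0.904.

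Called genes that follow one another on a chromosome made 7 runs of 3. In the run of Ptprj, a receptor phosphatase on chromosome 2, Ptprj averaged 29.3 CPM in AGR cKO and 62.8 CPM in Cre- libraries, at -1.02 ± 0.17 (edgeR adjusted p = 0.00876), beside the predicted genes Gm13768 (-0.97) and Gm13767 (-0.96). Gm13768 (90174097 to 90192037) and Gm13767 (90354656 to 90372596) have spans of equal length. Sharing of reads among the genes of this run was not tested, so their values are uncertain. In the run of St6gal1, Rtp1 and Masp1 on chromosome 16, Rtp1, a receptor-transporting protein, averaged 0.554 CPM in AGR cKO and 3.58 CPM in Cre- libraries, at -2.65 ± 0.47 (edgeR adjusted p = 0.0115). Of the other 5, 3 on chromosome 4 hold near-identical predicted copies that may share reads, and in the runs of Trp53bp2, Capn2 and LOC108167751 on chromosome 1 and of Rfxank, Nr2c2ap and Borcs8 on chromosome 8 some genes overlap, so their values are uncertain.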
